A study of Mus musculus with 4 samples.

Results

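The genes described here are the ligands and receptors of the tumor necrosis factor (TNF) superfamily, compared between tumors and normal tissue of the mouse ureter. A gene was included when the chip's annotation gave at least 1 probe set to it alone and its symbol began with Tnfsf or Tnfrsf followed by a number, or was Tnf, Lta, Ltb, Ltbr, Fas, Fasl, Cd40, Cd40lg or Cd27. These rules found 56 of 45101 probe sets and 35 of 18193 genes, of which 12 are ligands and 23 are receptors. A further 3 probe sets were annotated to several genes that include a superfamily member, and they were not used. Tnfsf12, Tnfsf13, Tnfsf15 and Tnfsf18 were not analysed here, because no probe set used was theirs alone. Tnfsf12 is the ligand gene of the receptor Tnfrsf12a, so that pair could not be set side by side.

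Normal ureter was measured in 2 samples and ureter tumor, described by the submitters as urothelial carcinoma, in another 2, each on 1 Affymetrix Mouse Genome 430 2.0 array. All 4 samples are labelled as ureter epithelium of C57Bl/6 mice aged 6 to 8 weeks. The same treatment label stands on all 4, namely R26rtTA;teto-Cre;Ncstnf/f animals that received Doxycycline at 3 weeks of age, over 1 week, so that Cre was switched on. It does not say which samples lacked Ncstn. R26rtTA places the doxycycline-dependent activator at Rosa26, a locus active in most cell types, so the Cre it drives is not limited to urothelium. Ncstn encodes nicastrin, a subunit of the protease that releases the active part of Notch receptors, and the study's title names the role of Notch signals in cancer of the urothelium. Per the labels these are biological replicates, but which animals they came from is not given, and p-values reflect only how much these samples vary. Pairs of signals are given in the order replicate 1, replicate 2.

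Ligands of this superfamily are mostly trimers on the surface of immune or stromal cells, and some are shed. Receptors with a death domain can start apoptosis, while most others recruit TRAF adaptors and activate NF-kB and MAP kinases. In epithelial tumors the family is best known for inflammation, for wound-type responses of the epithelium and for the survival and costimulation of lymphocytes.

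Markers of the labelled tissue were present in normal ureter, where the umbrella cell gene Upk3a, which encodes an apical plaque protein, had a signal of 5987 and 11463, and in tumor it had 69.8 and 52.3. Upk3a fell by 6.76 in log2 units (limma adjusted p = 0.0369). Of 20 urothelial genes tested 4 fell, 0 rose and 16 did not pass, while 0.943% of all genes tested fell and 0.491% rose. The median of the 20 was -1.61. Both tumor arrays were lower than normal in 11 and higher in 3, which were Krt14, Elf3 and Cdh1. Over all genes tested these shares were 27.7% and 29.4%. The normal arrays also carried fat cell genes, with a summed signal of 300897 and 312812 over 9 genes against 39325 and 6861 in tumor. Smooth muscle genes summed to 88522 and 74478 in normal ureter and 26280 and 36146 in tumor. Neutrophil genes summed to 499 and 395 in normal ureter and 25354 and 2179 in tumor. Summed macrophage genes were 22317 and 18163 in normal ureter and 81944 and 71289.9 in tumor. Summed mast cell genes were 2107 and 2123 in normal ureter, 113457 on tumor replicate 1 and 1659 on tumor replicate 2. Kidney tubule genes were present on 3 of 4 arrays, with sums of 29749 and 61063 in normal ureter and 158034 on tumor replicate 2, against 1757 on tumor replicate 1. Control probe sets for Gapdh gave 3' over 5' signal ratios, which climb when RNA is broken, of 0.92 and 0.923 for normal ureter and 1.51 and 1.44 for tumor, while those for Actb ran the other way, with 2.9 and 2.82 for normal ureter and 2.47 and 2.63 for tumor. These are bulk tissues, so more cells of a type and more RNA per cell cannot be told apart, and the part of cell makeup or RNA integrity in the results that follow was not tested.

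The receptor Tnfrsf12a, also called Fn14, was the member that rose, and receptors and ligands of B cell survival, lymphotoxin beta and TRAIL had large differences that did not pass the test. Values were compared as log2(signal + 16), where signal is the deposited intensity, and genes with a mean under 54.65, the 40th percentile of all probe sets, were not tested. Of the 35 members 21 were tested and 14 were too dim. Among those tested, 1 rose, 0 fell and 20 did not pass limma's test at a Benjamini-Hochberg adjusted p of 0.05, while over all 13046 genes tested 0.491% rose and 0.943% fell. At an unadjusted p under 0.05 there were 11 members higher and 0 lower, against 10.6% and 10.9% of all genes tested, and 10 higher and 0 lower by at least 2-fold, against 6.91% and 7.5%. Of these members, 5 reached the filter only through the tumor arrays, so the counts over tested members describe them and support nothing further. Over all 35 members, dim ones included, each tumor array was above both normal arrays in 14, below in 4 and overlapped them in 17, beside 25.5% above and 25.9% below over all 18193 genes. With no filter, 1 of 35 members rose and 0 fell, beside 0.253% and 0.517% of all genes, and 11 were higher and 0 lower at an unadjusted p under 0.05, beside 8.79% and 9.22%. The median difference, tumor minus normal, was 0.58 over the 35 members and 0.00 over all genes.

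**Figure D1:**
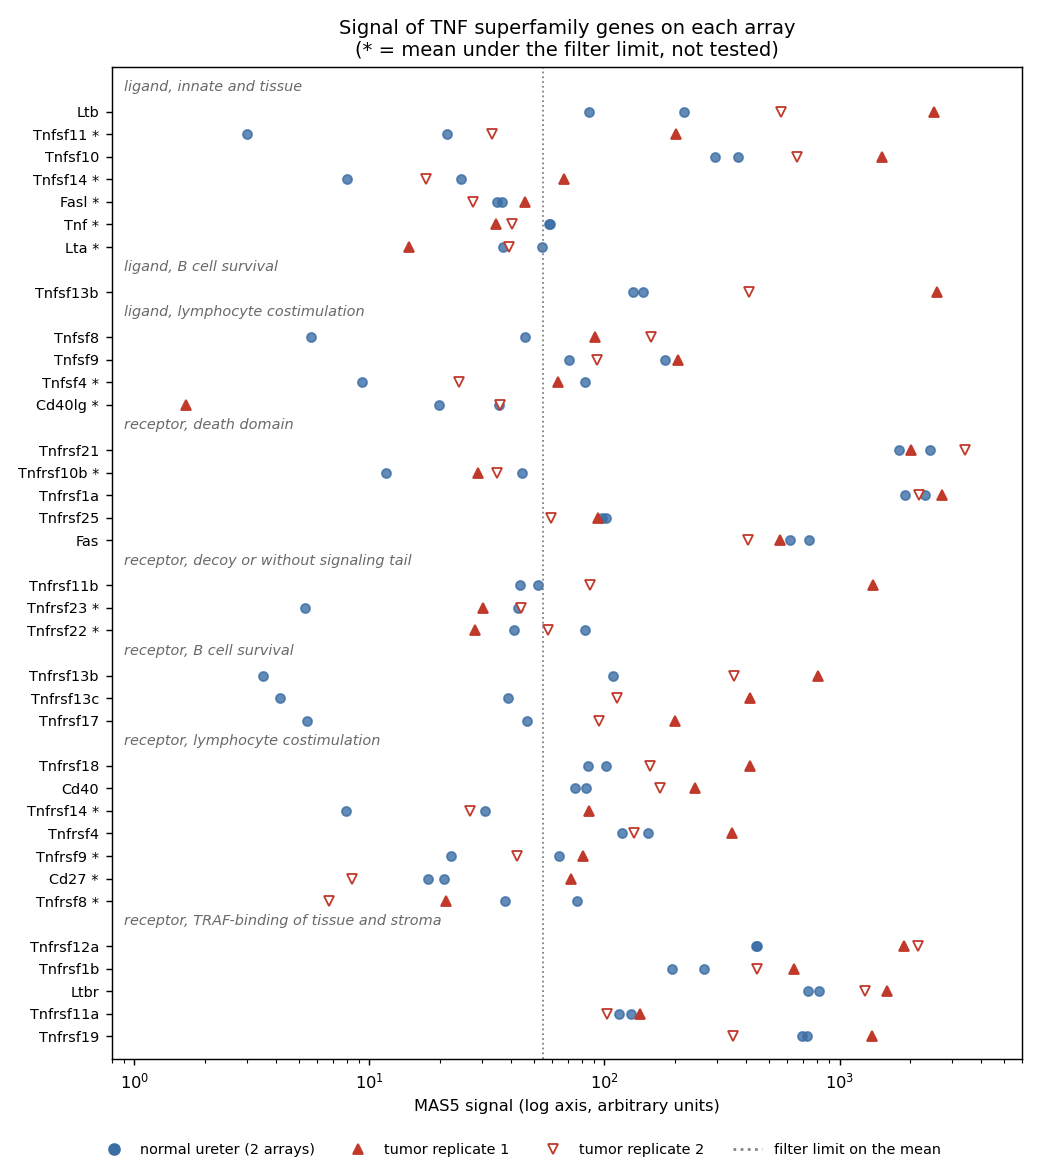
MAS5 signal (log axis, arbitrary units) of the 35 genes on each array, grouped by role. Blue circles are the 2 normal arrays, filled triangles tumor replicate 1, open triangles tumor replicate 2 and the dotted line the filter limit of 54.65. Tnfrsf12a at 1887 and 2163 in tumor stands clear of 445 and 443 in normal ureter, and signals of different genes cannot be set against each other.

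**Figure D2:**
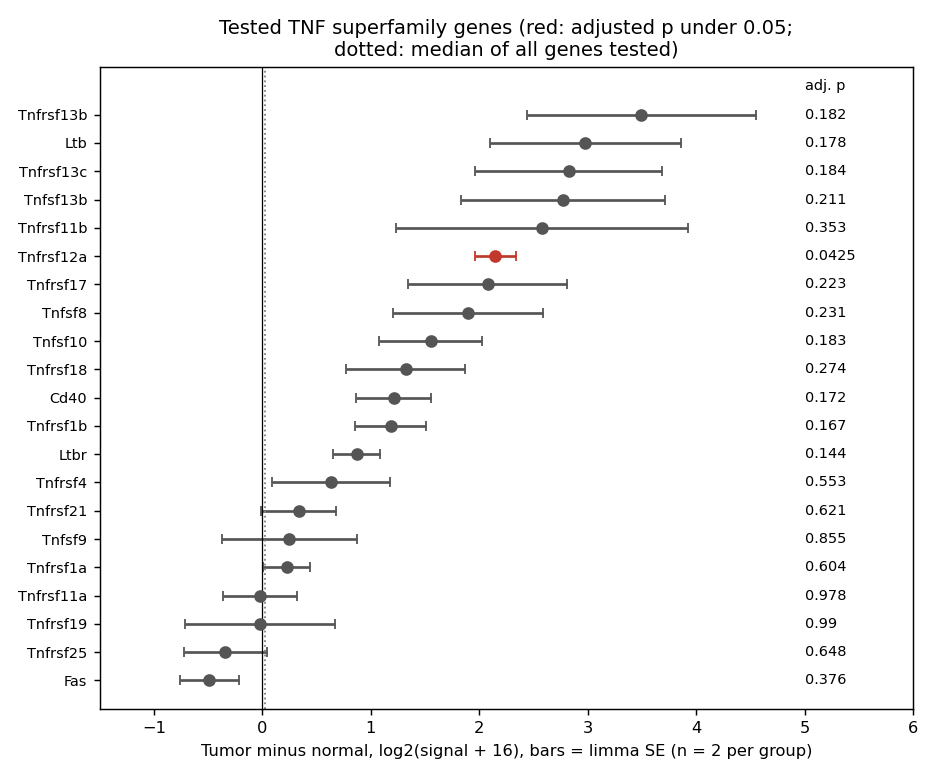
Difference (tumor minus normal on the log2(signal + 16) scale) of the 21 genes tested, with bars for the limma SE (n = 2 per group) and the adjusted p at the right. Tnfrsf12a, in red at 2.15 with an adjusted p of 0.0425, has a narrow error beside larger but less certain differences such as 3.49 for Tnfrsf13b.

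Tnfrsf12a is a small receptor without a death domain that recruits TRAF adaptors. It is known as an early response gene of growth factors and wounding in epithelium and fibroblasts. Its signal was 445 and 443 in normal ureter and 1887 and 2163 in tumor. Both tumor arrays were high, to nearly the same degree, and the groups did not overlap. Tnfrsf12a rose by 2.15 on the log2 scale, or 4.43-fold (SE 0.19, n = 2 in each group, limma adjusted p = 0.0425), from 444 ± 1.11 to 2025 ± 195 (SD, n = 2). A second probe set of the gene gave 487 and 489.9 in normal ureter and 1842 and 1627 in tumor, a difference of 1.79. The call ended without normal replicate 1 (2.15, adjusted p = 0.643) or normal replicate 2 (2.14, adjusted p = 0.655), and with the replicate number as a block (adjusted p = 0.113), and in each of these fits 0 genes passed limma. At an unadjusted p under 0.05 these fits gave 431 higher and 453 lower, 404 and 485, and 1125 and 1128 genes. It also ended without an intensity trend (adjusted p = 0.0638) or with each array centred on its median (2.34, adjusted p = 0.0501). Over the alternatives run the difference ran from 1.97 to 2.34 and the adjusted p from 6.79e-07 to 0.655.

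Windows of 300 bases around gene starts, 250 before and 50 after, were taken from RefSeq (GRCm38.p6) and searched on both strands for the NF-kB consensus decamer and for the AP-1 site TGANTCA. The table held windows for 28 of the 35 members. The NF-kB decamer was found in 4 of their 32 windows and the AP-1 site in 6, beside 8.46% and 7.81% of all 32851 windows. The windows of Tnfrsf12a, the member that rose, and of the ligand genes Ltb and Tnfsf13b, whose differences were the largest among ligands tested, are printed 5′ to 3′ on the gene's strand, with matches to either motif in capitals. No letters match in Tnfrsf12a.
Tnfrsf12a (chr17:23677400-23677699, - strand): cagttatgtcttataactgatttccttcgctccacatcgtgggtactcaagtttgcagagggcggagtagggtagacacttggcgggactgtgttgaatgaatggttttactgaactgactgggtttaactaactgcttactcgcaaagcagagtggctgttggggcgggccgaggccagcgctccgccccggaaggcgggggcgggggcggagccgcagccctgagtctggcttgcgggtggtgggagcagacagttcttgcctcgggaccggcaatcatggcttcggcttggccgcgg
Ltb (chr17:35194257-35194556, + strand): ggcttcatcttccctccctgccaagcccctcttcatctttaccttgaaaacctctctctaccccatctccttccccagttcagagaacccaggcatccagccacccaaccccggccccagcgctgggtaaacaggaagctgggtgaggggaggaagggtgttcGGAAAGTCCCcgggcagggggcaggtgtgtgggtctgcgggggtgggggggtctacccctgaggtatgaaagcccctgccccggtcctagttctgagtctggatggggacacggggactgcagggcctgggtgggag
Tnfsf13b (chr8:10006217-10006516, + strand): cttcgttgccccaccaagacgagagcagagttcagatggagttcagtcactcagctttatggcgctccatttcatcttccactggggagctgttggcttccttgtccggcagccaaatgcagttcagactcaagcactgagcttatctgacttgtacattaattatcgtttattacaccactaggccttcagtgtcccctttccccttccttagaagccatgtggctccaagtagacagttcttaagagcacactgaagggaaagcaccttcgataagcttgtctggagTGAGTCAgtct
The match in Ltb is to the NF-kB decamer and begins 87 bases before the start, and the match in Tnfsf13b is to the AP-1 site and begins 40 bases after this start. A match is a description of the letters only, and occupancy was not measured.

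The B cell survival group holds the ligand Tnfsf13b, or BAFF, and its receptors Tnfrsf13b, Tnfrsf13c and Tnfrsf17. BAFF is made by myeloid and stromal cells and keeps B cells and plasma cells alive. Of these 4 genes 0 passed the limma test, while all 4 had an unadjusted p under 0.05 and both tumor arrays above both normal arrays. Over all genes tested, 10.6% were higher at that p and 29.4% lay above both normal arrays. The 3 receptors reached the filter only through the tumor arrays, so the count of 4 describes these genes and supports nothing further. Tnfsf13b gave signals of 146 and 133 in normal ureter and 2603 and 413 in tumor. Tumor replicate 1 was far above tumor replicate 2, which was itself above both normal arrays. The difference was 2.77 (SE 0.94, n = 2 in each group, limma adjusted p = 0.211), and averaging its 3 probe sets gave 1.35. A second probe set above the limit gave 1.47, and a dim one gave -0.20.

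Tnfrsf13b, or TACI, a receptor of mature B cells and plasma cells, gave signals of 3.53 and 109 in normal ureter and 813 and 357 in tumor. The difference was 3.49 (SE 1.06, limma adjusted p = 0.182). Tnfrsf13c, the BAFF receptor of naive B cells, had 38.8 and 4.17 in normal ureter and 414 and 113 in tumor, a difference of 2.82 (SE 0.86, limma adjusted p = 0.184). Tnfrsf17, or BCMA, which marks plasma cells, had 47.0 and 5.44 in normal ureter and 200.2 and 94.9 in tumor, a difference of 2.08 (SE 0.73, limma adjusted p = 0.223). Each of the 3 receptors was higher on tumor replicate 1 than on tumor replicate 2, and their groups did not overlap. Their normal means lay under the filter limit, so the size depends on the pseudocount, with 4.60, 3.92 and 2.98 at a pseudocount of 1 and 2.49, 1.80 and 1.22 at 64 for Tnfrsf13b, Tnfrsf13c and Tnfrsf17. The normal arrays also differed from each other in these dim signals, by more than 4-fold on the log2(signal + 16) scale for Tnfrsf13b.

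Most markers of B cells and plasma cells were higher on the same arrays. Summed over 11 B cell markers, the signal was 551 and 507 in normal ureter and 6978 and 1353 in tumor. The median difference of the 8 markers tested was 2.54 (3.42 on tumor replicate 1 and 1.15 on tumor replicate 2). All 8 were higher on each tumor array than on either normal array, beside 29.4% of all genes tested. Of the 8, 0 passed the limma test, with 3 higher and 0 lower at an unadjusted p under 0.05, beside 10.6% and 10.9%. Cr2, Fcer2a, Fcmr, Vpreb3 and Spib reached the filter only through the tumor arrays, so the count of 8 supports nothing further. Of the markers too dim to test, Pax5 and Blk overlapped between groups and Cd79a did not. No B cell marker was listed at 0, and among defining ones Ms4a1, which encodes CD20, had 102 and 98.1 in normal ureter and 2504 and 262 in tumor, while Pax5 had 59.4 and 53.9 against 40.9 and 55.9. Of 12 plasma cell markers tested 2 rose, Igha and Jchain, which encode the IgA heavy chain and the chain that joins IgA units, and 10 did not pass, with a median of 1.94. In 9 of the 12 both tumor arrays exceeded the normal ones, beside 29.4% of all genes tested, each at an unadjusted p under 0.05, beside 10.6%. Among these, Pou2af1 reached the filter only through the tumor arrays. Irf4, a factor of plasma cells and other lymphocytes, was lower on both, with 672 and 729 in normal ureter, 413 and 207 in tumor and a difference of -1.21 (limma adjusted p = 0.201). The part of these cells in the receptor differences was not tested.

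Among ligands of inflammation and tissue organization, Ltb and Tnfsf10 were higher on both tumor arrays, without passing the test, while Tnf itself was dim and lower. Ltb, or lymphotoxin beta, made by lymphocytes and needed for lymphoid tissue, gave signals of 86.0 and 218 in normal ureter and 2523 and 566 in tumor. The groups did not overlap, tumor replicate 1 being the highest, and the difference was 2.98 (SE 0.88, n = 2 in each group, limma adjusted p = 0.178). Tnfsf10, or TRAIL, a ligand of death receptors, had 371 and 296 in normal ureter and 1517 and 659.5 in tumor, and the groups differed by 1.55 (SE 0.47, limma adjusted p = 0.183). Its other probe sets above the limit gave 1.62 and 1.00.

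Tnf, the founding cytokine of the family, had 58.6 and 57.9 in normal ureter and 34.7 and 40.3 in tumor, under the filter limit on average. Both tumor arrays lay below both normal arrays, and the difference was -0.48, or -0.28 under quantile normalization. Lta, its neighbor in function, overlapped between groups with a difference of -0.56, and Fasl, the ligand of Fas, with 0.00. Tnfsf11, or RANKL, which drives osteoclasts and lymph node formation, had 21.4 and 3.004 in normal ureter and 202 and 33.2 in tumor, a difference of 1.96, untested. Tnfsf14, or LIGHT, was dim on 3 of 4 arrays and had 67.3 on tumor replicate 1, with a difference of 0.76.

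Among receptors of tissue and stroma, which include those of lymphotoxin and TNF, Ltbr and Tnfrsf1b were higher on both tumor arrays without passing the test. Ltbr, the lymphotoxin beta receptor of stroma, epithelium and myeloid cells, had 735 and 821 in normal ureter and 1597 and 1282 in tumor. Both tumor arrays were higher by similar amounts, and the difference was 0.87 (SE 0.21, n = 2 in each group, limma adjusted p = 0.144). Tnfrsf1b, the TNF receptor of leukocytes and endothelium, had 266 and 194 in normal ureter and 643 and 447 in tumor, and the groups differed by 1.18 (SE 0.33, limma adjusted p = 0.167). A dimmer probe set of Tnfrsf1b had a difference of -0.10. It was the only opposite sign among the 9 further probe sets above the limit, which read 7 members.

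Of 16 macrophage genes tested 5 rose by the limma test, beside 0.491% of all genes tested. All 16 were higher on each tumor array than on either normal array, beside 29.4%, and the median was 2.12. Trem2 and Cx3cr1 reached the filter only through the tumor arrays. The part of macrophages in Tnfrsf1b was not tested. Tnfrsf11a, or RANK, had 130.2 and 115 in normal ureter and 141 and 102 in tumor, a difference of -0.02, which turned to 0.14 under quantile normalization. Tnfrsf19, or TROY, a receptor of epithelial and neural progenitors, had 728 and 694 in normal ureter, 1369 on tumor replicate 1 and 353 on tumor replicate 2. The tumor arrays thus lay on opposite sides of the normal arrays, and the difference was -0.02 (SE 0.69, limma adjusted p = 0.99), or 0.17 with arrays centred on the median.

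Death-domain receptors gave 0 of 4 tested genes past the limma test, and 0 at an unadjusted p under 0.05. Tnfrsf1a, the main TNF receptor of most cells, had 2310.3 and 1896 in normal ureter and 2737 and 2183 in tumor. The groups overlapped, and the difference was 0.22 (SE 0.22, n = 2 in each group, limma adjusted p = 0.604). Tnfrsf21, or DR6, had 1784 and 2419 in normal ureter and 2011 and 3417 in tumor, a difference of 0.33 (SE 0.35, limma adjusted p = 0.621). Fas, which triggers apoptosis when bound by its ligand, had 743 and 615 in normal ureter and 559 and 407 in tumor. Both tumor arrays lay below both normal arrays, and the groups differed by -0.49 (SE 0.27, limma adjusted p = 0.376). Tnfrsf25, or DR3, a receptor of T cells, had 97.5 and 101 in normal ureter and 93.9 and 59.2 in tumor, which were the lower ones by a small margin, and the groups differed by -0.34 (SE 0.38, limma adjusted p = 0.648). Tnfrsf10b, the TRAIL receptor of the mouse, was too dim to test, with signals from 11.8 to 44.5.

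Among decoy receptors, which bind ligand without a full signal, Tnfrsf11b had the widest gap between tumor arrays. Tnfrsf11b encodes osteoprotegerin, a secreted decoy of RANKL and TRAIL, and had 43.6 and 52.0 in normal ureter, 1385 on tumor replicate 1 and 87.2 on tumor replicate 2. The difference was 2.58 (SE 1.35, n = 2 in each group, limma adjusted p = 0.353), made of 4.46 for tumor replicate 1 and 0.70 for the other array. A second probe set of Tnfrsf11b, under the filter limit, gave 50.8 and 1.95 in normal ureter and 121 and 36.7 in tumor. Its groups overlapped, with a difference of 1.30. Tnfrsf22 and Tnfrsf23, decoy TRAIL receptors of the mouse with similar sequences, overlapped between groups at -0.40 and 0.58 and were too dim to test. Averaging the 3 probe sets of Tnfrsf22 turned its difference to 0.15.

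Costimulatory genes, which tune T and B cell responses, gave 0 of 5 tested genes past the limma test. Cd40 and Tnfsf8 were higher at an unadjusted p under 0.05, beside 10.6% of all genes tested. Tnfsf8 reached the filter only through the tumor arrays, so this count supports nothing further. Cd40, a receptor of B cells, dendritic cells and macrophages, had 75.0 and 83.8 in normal ureter and 242 and 173 in tumor. The groups did not overlap, and the difference was 1.21 (SE 0.34, n = 2 in each group, limma adjusted p = 0.172), with 2.60 and 1.76 from its other probe sets. Its ligand gene Cd40lg, made by helper T cells, was too dim to test, at 19.7 and 35.7 in normal ureter and 1.66 and 36.0 in tumor. Tnfrsf18, or GITR, had 102 and 85.3 in normal ureter and 414 and 156 in tumor, a difference of 1.32 (SE 0.55, limma adjusted p = 0.274). Tnfrsf4, or OX40, had 153 and 119 in normal ureter, 349.6 on tumor replicate 1 and 134 on tumor replicate 2, so the groups overlapped, and their means differed by 0.63 (SE 0.54, limma adjusted p = 0.553).

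Tnfsf8, the CD30 ligand, had 5.66 and 46.0 in normal ureter and 91.3 and 157 in tumor, a difference of 1.90 (SE 0.69, limma adjusted p = 0.231), which was 2.77 at a pseudocount of 1 and 1.08 at 64. Its groups did not overlap. Its receptor Tnfrsf8, or CD30, was dim and had both tumor arrays below both normal arrays, at 21.2 and 6.70 against 76.3 and 37.6. Tnfsf9, the ligand of 4-1BB, overlapped between groups, with 180.4 and 71.0 in normal ureter, 205 and 92.8 in tumor and a difference of 0.25 (SE 0.62, limma adjusted p = 0.855). The remaining genes of this kind were too dim to test and overlapped between groups. Their differences were 0.39 for Cd27, 0.97 for Tnfrsf14, 0.45 for Tnfrsf9 and 0.17 for Tnfsf4. Of 14 T and NK cell genes tested 0 passed the limma test. At an unadjusted p under 0.05, 1 was higher and 2 lower, beside 10.6% and 10.9% of all genes tested. The median of these 14 genes was 1.07 (1.44 by tumor replicate 1, 0.15 by the other). Cd247, Cd5, Gzmb and Prf1 reached the filter only through the tumor arrays, so the counts and the median support nothing further. Summed over the 18 T and NK cell genes measured, the signal was 1632 and 1783 in normal ureter, 23606 on tumor replicate 1 and 1711 on tumor replicate 2. Most of the high sum came from the granzyme genes Gzma, at 15262, and Gzmb, at 4168, while Cd8a and Zap70 were lower on both tumor arrays, with differences of -1.10 and -0.79. The part of these cells was not tested.

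The tumor arrays differed from each other in most members. Of the 21 genes tested 18 were higher on tumor replicate 1 than on tumor replicate 2, beside 51.2% of all genes tested, and the median gap was 0.96 against 0.02. The gap was at least 4-fold in 3 of the members tested, Tnfsf13b, Ltb and Tnfrsf11b, beside 1111 of 13046 genes tested, and also in Tnfsf11, which was not tested. The tested members that were higher on tumor replicate 2 were Tnfrsf12a, Tnfrsf21 and Tnfsf8. For Tnfrsf12a the order depends on the probe set, as its second one had 1842 on tumor replicate 1 and 1627 on tumor replicate 2. Leaving out tumor replicate 1 gave a median difference of 0.71 over the members tested, beside 0.04 over all genes tested. Fas was then at -0.71 and Tnfrsf19 at -0.98. Leaving out tumor replicate 2 gave a median of 1.44, beside 0.01 over all genes tested, with Fas at -0.27 and Tnfrsf19 at 0.93. In any test of such a fit, a tumor array left alone is assumed to vary like the normal pair.

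**Figure D3:**
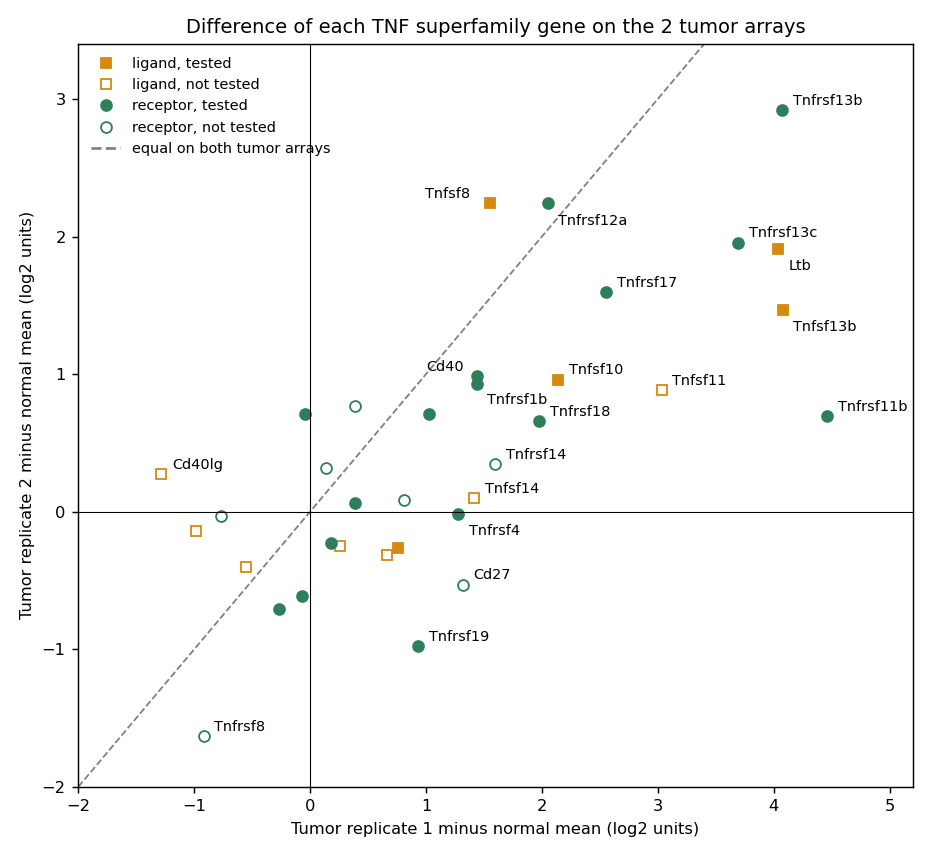
Difference from the normal mean (log2 units) of each of the 35 genes on tumor replicate 1 (x axis) and tumor replicate 2 (y axis), ligands as squares and receptors as circles, open where not tested. Tnfrsf12a lies near the dashed line of equal values, while Tnfrsf11b, at 4.46 and 0.70, lies far to its right.

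Ligands and their receptors were set side by side for 24 known pairs, of which 19 had both partners measured. Both partners were higher on each tumor array than on either normal array in 6 pairs, while this held for 1 partner in 7 pairs and for neither in 6. Over all 18193 genes, each taken alone, the share was 25.5%. That is a share of genes and not of pairs, and none was computed for pairs. The 6 pairs were Ltb with Ltbr, Tnfsf13b with each of its 3 receptors, and Tnfrsf11b with Tnfsf10 and with Tnfsf11. Apart from Ltb with Ltbr, each of these holds a receptor that passed the filter only through the tumor arrays, and Tnfsf11 was not tested. Tnf with Tnfrsf1a and Fasl with Fas were among the last. Pairs share members, so these counts are not independent.

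Among genes that work with or after TNF receptors, the NF-kB inhibitor gene Nfkbie and the TNF-induced genes Vcam1, Ier3 and Cxcl1 rose. Of 21 TRAF, cIAP and adaptor genes tested 0 passed the limma test. At an unadjusted p under 0.05, 2 were higher (Birc3 and Map3k14) and 0 lower, beside 10.6% and 10.9% of all genes tested. Of the 21, 11 lay above both normal arrays, beside 29.4% of all genes tested, and the median was 0.34. Birc3, an NF-kB target that encodes cIAP2, had 623 and 613 in normal ureter and 2787 and 1816 in tumor, a difference of 1.84 (SE 0.27, n = 2 in each group, limma adjusted p = 0.0742). Map3k14, the kinase NIK of the alternative NF-kB route, had a difference of 1.12 (adjusted p = 0.207), Tab2 0.57 and Traf2 0.74. Of 17 NF-kB subunits, kinases and inhibitors tested 1 rose, 16 did not pass, 12 lay above both normal arrays beside 29.4% of all genes tested, and the median was 0.62. Nfkbie, which encodes the inhibitor IkB-epsilon, had 127 and 111 in normal ureter and 1768 and 1144 in tumor and rose by 3.42 in log2 units (SE 0.31, limma adjusted p = 0.0425). The inhibitor-like genes Bcl3 and Nfkbiz had differences of 2.34 and 1.57 (adjusted p = 0.1 and 0.109), and the deubiquitinase Cyld 0.80.

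Of 25 genes that TNF is known to induce 3 rose and 22 did not pass, and their median was 1.84, or 2.08 by the first tumor array and 1.22 by the other. At an unadjusted p under 0.05, 13 were higher and 2 lower, beside 10.6% and 10.9% of all genes tested. Vcam1, an adhesion molecule for leukocytes, had 533 and 566 in normal ureter and 2748 and 2763 in tumor and rose by 2.29 (SE 0.17, n = 2 in each group, limma adjusted p = 0.0402). Cxcl1, a neutrophil chemokine, and Ier3, an early response gene, also rose, and Icam1 had a difference of 2.55 (adjusted p = 0.0505). The genes Sod2 and Sele of the same list had differences of -1.14 and -2.01. Of 17 death receptor and necroptosis genes 0 passed the limma test, and the median was 0.18. At an unadjusted p under 0.05, 1 was higher and 0 lower, beside the same 10.6% and 10.9%. Ripk3, a kinase of necroptosis, had the smallest p, with a difference of 1.40 (adjusted p = 0.229). Apaf1, Bid and Cycs had differences of 0.93, 0.66 and -0.96.

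Of 11 sheddases and their regulators 0 passed the limma test, and the median was 0.68. At an unadjusted p under 0.05, 4 were higher and 0 lower, beside 10.6% and 10.9% of all genes tested. Adam17, which releases TNF, had 1338 and 1434 in normal ureter and 1829.5 and 1399.99 in tumor, a difference of 0.21 (adjusted p = 0.625). Mmp7, which can release FasL, had 18.0 and 6.03 in normal ureter and 530.3 and 2395 in tumor. The groups differed by 5.39 (SE 0.83, limma adjusted p = 0.0777). Mmp7 reached the filter only through the tumor arrays, so the count of sheddase genes supports nothing further. Adam8, Mmp14 and Furin had differences of 2.88, 1.49 and 0.69. In the list for lymphoid tissue and the alternative NF-kB route, which holds Ltbr, 0 of 8 genes tested passed limma. At an unadjusted p under 0.05, 3 were higher and 0 lower, beside the same 10.6% and 10.9%. Of the 8, 7 lay above both normal arrays, beside 29.4% of all genes tested. Relb had a difference of 1.18 and Il7r, a T cell and innate lymphoid receptor, one of 2.67. The calls in these lists ended without normal replicate 1 or normal replicate 2, as did those of all 13046 genes.

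**Figure D4:**
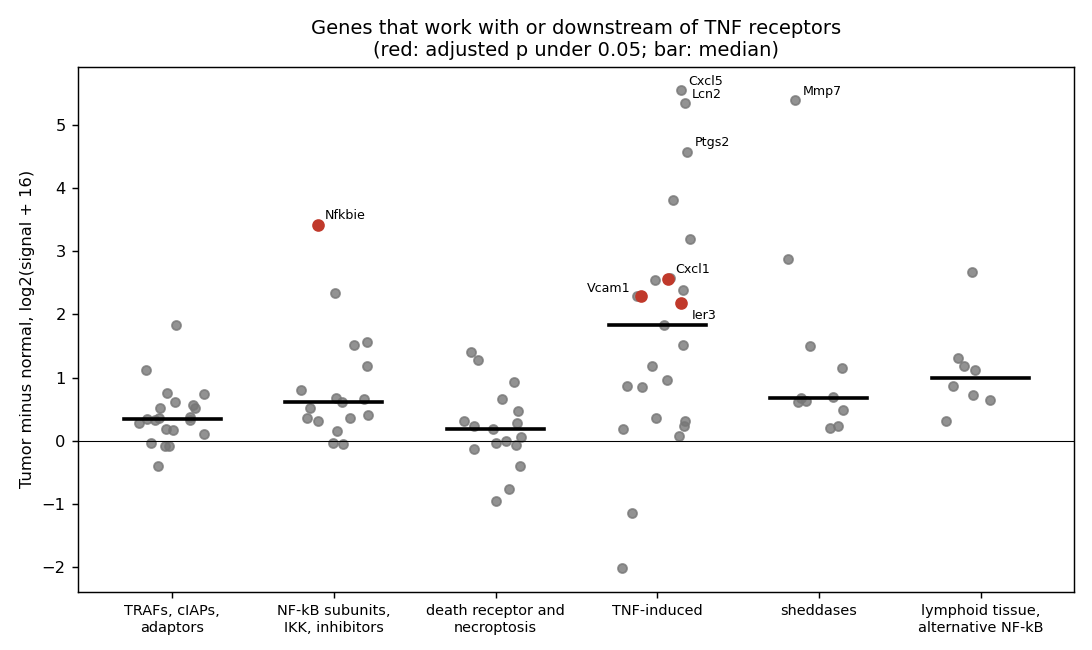
Difference (tumor minus normal, log2(signal + 16)) of each tested gene in 6 lists of genes that act with or after TNF receptors, 1 point per gene, with a bar at the list's median and red for an adjusted p under 0.05. The TNF-induced list sits highest with a median of 1.84 and the death receptor list lowest with 0.18.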

How the data were processed

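Total RNA of 4 ureter samples was purified and 6 ug of it labelled with biotin as cRNA, per the labels' protocols. The authors deposited linear intensity values, 1 for each probe set. The submitters' processing notes name MAS5, its version being not given in the sources used here. Each deposited column had a trimmed mean of 500 (2% cut from either end), so a signal is relative to its own array. The number of arrays, 2 per group, limits the precision, and the exact permutation test has a smallest p of 0.333 here.

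Symbols came from the platform annotation and were updated by gene ID for 34741 of 34945 probe sets with 1 gene symbol, and 932 had several symbols, 9160 had none and 64 were controls. The deposited intensity was transformed to log2(signal + 16), which understates changes of dim genes. Where several probe sets read 1 gene, the one with the highest mean of these log2 values stood for it, and the filter used the same mean. The test was limma 3.58.1 under R 4.3.3 (intensity trend, two-sided, Benjamini-Hochberg over 13046 genes, 2 residual and 2.11 prior degrees of freedom), and the fit was tested on simulated data. The members and gene lists were chosen with earlier results of these data known. Every member is accounted for. Full values were given for members past the threshold, for the 4 with the smallest p and the brightest in each role, and for their ligands or receptors. From the gene lists, those past the threshold and the 4 with the smallest p could be named, other names being chosen after their values were seen. The replicate numbers were taken as names and not to pair samples. Across genes, deviations of same-numbered samples from their group means correlated at 0.0391, which with 2 arrays per group cannot settle whether samples were paired. Alternatives were pseudocounts of 1 and 64, quantile normalization, median centring, filters, the mean of probe sets, prior variance settings, a replicate block, a 2-fold rule and leaving out each array. Figures were drawn with matplotlib 3.10.9.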

Additional observations from a re-analysis of the deposited data

How the results depend on the processing

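With each array centred on its median, which took the median of all genes tested from 0.03 to 0.22, 10 genes were higher and 25 lower by limma, and 0 members passed. At an unadjusted p under 0.05, 11 members were then higher and 0 lower, beside 1972 (15.1%) and 1013 of 13046 genes tested. Without the intensity trend 1 gene was higher and 1 lower, and 0 members passed. With that setting 11 members were higher and 0 lower at an unadjusted p under 0.05, beside 1329 (10.2%) and 1410 genes. With the replicate number as a block 0 genes were higher, 0 lower and 0 members passed, with 1125 and 1128 genes and 10 members at an unadjusted p under 0.05. Averaging the probe sets of each gene gave 28 genes higher and 76 lower. Calling genes by 2-fold and p under 0.05 unadjusted gave 901 genes higher and 979 lower, and 10 members higher. Leaving out 1 array gave 0 to 2749 genes higher, 0 to 2753 lower, 0 to 14 members higher, 0 to 2 lower and a median of 0.71 to 1.44 over members tested, against 64, 123, 1, 0 and 1.21. Without the filter this median was 0.58 over 35 genes.

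Signs of small differences changed. Tnfrsf11a was 0.14 with quantile normalization, 0.17 with centring and 0.072 with the mean of its probe sets, and Tnfrsf19 was 0.17 with centring. Leaving out 1 array gave ranges of -0.23 to 0.18 for Tnfrsf11a, -0.98 to 0.93 for Tnfrsf19, -0.046 to 0.71 for Tnfrsf21, -0.016 to 1.27 for Tnfrsf4 and -0.34 to 0.83 for Tnfsf9. The cause was not tested. The signs of the other 16 tested members held in the alternatives run. Without detection calls, no dim signal could be told from background.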

Other observations

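Relatives of the superfamily whose symbols fall outside the naming rule gave 0 of 3 tested genes past the limma test, and 0 at an unadjusted p under 0.05. Ngfr, a death-domain receptor for neurotrophins, gave signals of 258 and 118 in normal ureter, 1501 for tumor replicate 1 and 121 for the other tumor array, with a tumor minus normal value of 1.25 (SE 1.29 over 2 arrays a group, limma adjusted p = 0.62). Eda2r, a receptor of an ectodysplasin isoform, had 79.0 and 38.7 in normal ureter and 91.5 and 114 in tumor, a difference of 0.71. Relt had a difference of 0.59, and Cd70, Eda and Edar were too dim to test. Cd70, the ligand of CD27, had 25.9 and 45.3 in normal ureter and 2.30 and 7.55 in tumor.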
